A study of Mus musculus with 18 samples.

Results

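The 279 isolated DMC1 hotspots are autosomal sites of the authors' list of shared DMC1 sites that have no other listed site within 500 kb on either side. Within the list they were chosen by position alone, from the gap between the end of an interval and the start of the next. They make up 3.19% of its 8744 autosomal sites. The list holds only sites shared by the genotypes compared below. A DMC1 site found in only some of them was not counted as a neighbour and may lie within a gap. The outermost sites of each of the 19 autosomes, 38 in all, were left out of the isolated set and counted among the 8465 other autosomal sites, with which the isolated sites were compared. The whole list, with the X chromosome, holds 9132 sites.

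Meiotic recombination in mice starts from programmed DNA double strand breaks, which gather at short stretches called hotspots. PRDM9 chooses most of these places: its zinc fingers bind DNA, and its PR/SET domain methylates histone H3 at lysines 4 and 36 (H3K4me3 and H3K36me3) on the nucleosomes next to the bound sequence. After SPO11 has cut, the ends are resected and the recombinase DMC1 loads onto the single strands, so that DMC1 ChIP-seq reads pile up where breaks formed and persisted. EWSR1 is an RNA- and DNA-binding protein of the FET family, known outside meiosis for its fusions in Ewing sarcoma.

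All material was spermatocytes of mice at 14 days of age, when many cells are in the first meiotic prophase. The series holds 18 samples in 12 groups, and columns of 5 groups with 2 samples each were used. These are DMC1 in C57BL/6J mice (B6), in mice with a conditional knockout of Ewsr1 driven by Stra8-iCre (Ewsr1 CKO) and in Prdm9+/- mice (Prdm9 het), together with both histone marks in the Ewsr1 CKO. Stra8 is active in male germ cells as they approach meiosis, and the labels do not give the genetic background of the Ewsr1 CKO and Prdm9 het animals or say whether animals were pooled. Each column gives a single value per site for its group, in RPM, a read count scaled to a total that the sources used here do not state. No value has a replicate spread, so no difference between genotypes could be set against variation between animals and no p-value was computed. In such bulk material, fewer cells with a break at a site and less DMC1 per cell cannot be told apart. Summed over the list with its X sites, DMC1 came to 867788 RPM in B6 and almost the same, 867820 RPM, in Ewsr1 CKO. Whether these near-equal sums come from the scaling of the columns was not tested. A gain or loss of DMC1 common to all sites cannot be told from scaling, so higher or lower DMC1 means the values as scaled. On autosomes alone the means were higher in Ewsr1 CKO than in B6. They were 86.5 against 81.4 RPM at other sites and 119 against 87.7 RPM at isolated sites. The sum of Prdm9 het was 5.66-fold below B6. Whether the lower sum of Prdm9 het means less DMC1 or another scale of that column cannot be told. Levels of Prdm9 het are thus not comparable with those of the other 2 genotypes. Ratios with Prdm9 het are therefore also given relative to the median of all autosomal sites.

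The DNA of the isolated sites could be shown only where a RefSeq promoter window lay wholly inside a site, which was so at 3 of the 279 sites. These windows are promoter DNA and are not taken as typical of isolated sites, most of which lie between protein-coding genes. They are given 5′ to 3′ on the strand of the gene, for build GRCm38.p6, the assembly that is also called mm10. The window of Zfp616, a zinc finger gene, is chr11:74060647-74060946 on the plus strand. That of Vmn1r235, a vomeronasal receptor gene, is chr17:21260177-21260476 on the plus strand, and that of Il23r, which encodes the interleukin 23 receptor, is chr6:67491806-67492105 on the minus strand. Capitals mark matches on either strand to GNTGCTNCT (AGNAGCANC on the other strand), a short core of the consensus described for the PRDM9 variant of B6 mice.
Zfp616: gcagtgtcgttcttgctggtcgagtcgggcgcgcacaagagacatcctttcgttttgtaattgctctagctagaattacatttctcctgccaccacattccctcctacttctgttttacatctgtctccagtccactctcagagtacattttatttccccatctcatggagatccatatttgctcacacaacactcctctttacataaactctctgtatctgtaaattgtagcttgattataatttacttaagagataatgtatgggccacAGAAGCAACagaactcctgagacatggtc
Vmn1r235: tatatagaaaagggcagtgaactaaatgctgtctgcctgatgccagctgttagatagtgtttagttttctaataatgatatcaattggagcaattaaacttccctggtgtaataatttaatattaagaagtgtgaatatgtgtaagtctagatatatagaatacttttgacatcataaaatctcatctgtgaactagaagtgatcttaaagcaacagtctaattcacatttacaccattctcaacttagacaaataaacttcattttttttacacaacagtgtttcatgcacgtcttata
Il23r: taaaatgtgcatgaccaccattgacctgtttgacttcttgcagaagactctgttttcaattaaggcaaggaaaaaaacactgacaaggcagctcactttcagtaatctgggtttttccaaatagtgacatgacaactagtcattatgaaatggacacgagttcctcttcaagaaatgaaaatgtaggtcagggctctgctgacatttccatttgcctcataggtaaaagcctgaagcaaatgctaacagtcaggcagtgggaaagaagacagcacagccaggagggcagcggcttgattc
The window of Zfp616 held 1 match and those of Vmn1r235 and Il23r held 0, and 7.13% of the 31396 autosomal promoter windows of this length hold at least 1. A match describes the letters in the window and says nothing of binding. The window centres lay at −193.5 bp (Zfp616), −301.5 bp (Vmn1r235) and −409.5 bp (Il23r) from the centres of their sites. The site at Zfp616 (chromosome 11, 74060098 to 74061882) had a DMC1 value of 22.2 RPM (B6), 42.7 RPM (Ewsr1 CKO) and 9.43 RPM (Prdm9 het). The site at Vmn1r235 (chromosome 17, 21259746 to 21261510) had 11.1, 24.3 and 3.22 RPM, and the site at Il23r (chromosome 6, 67491534 to 67493196) had 12.9, 23.3 and 4.86 RPM, in the same order. All 3 were weak sites with more DMC1 in Ewsr1 CKO than in B6.

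Isolated sites lay in parts of the genome with few genes. The smaller of a site's 2 gaps had a median of 616 kb and reached 2125 kb, and the larger gap had a median of 992 kb. Among other autosomal sites the median of the smaller gap was 75.9 kb. Protein-coding genes overlapped 86 isolated sites (30.8%, Wilson 95% interval 25.7 to 36.5%) and 54.9% of the other sites (53.8 to 55.9%). A window of 500 kb to each side of an isolated site touched a median of 3 protein-coding genes (quartiles 1 and 10), against 7 (3 and 13) for other sites. At 50 isolated sites (17.9%) that window touched none, which was so for 4.97% of the other sites. Every autosome held isolated sites, from 4 on chromosome 19 to 26 on chromosome 3. Their intervals were as wide as those of other sites, with medians of 2540 and 2515 bp.

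The median DMC1 level of isolated sites was close to that of other sites in B6 and above it in Ewsr1 CKO. The median DMC1 value in B6 was 48.6 RPM at isolated sites (quartiles 22.4 and 116 RPM) and 47.3 RPM at other sites (24.7 and 97.9 RPM). In Ewsr1 CKO it was 69.2 RPM (37.4 and 144 RPM) against 55.5 RPM (30.0 and 108 RPM), a ratio of medians of 1.25. In Prdm9 het it was 10.5 RPM (4.55 and 25.4 RPM) against 8.99 RPM (4.20 and 20.1 RPM), a ratio of 1.17. Taken by autosome, the isolated median was the higher on 11 of 19 in B6, on 13 in Ewsr1 CKO and on 13 in Prdm9 het. The quartiles of the 2 sets overlapped widely in all 3 columns, and the ratio in B6 (1.03) was 0.964 when sites within 10 Mb of the outermost sites of a chromosome were left out. Isolated sites took 3.43% of the autosomal DMC1 sum in B6, 4.34% in Ewsr1 CKO and 3.69% in Prdm9 het, set against their 3.19% of the sites.

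**Figure D1:**
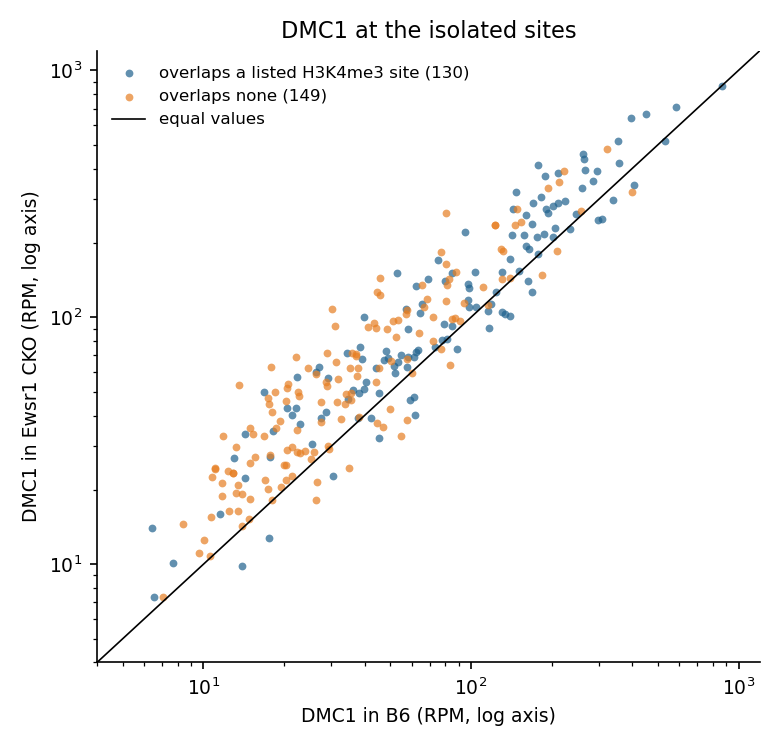
DMC1 in Ewsr1 CKO (vertical, RPM, log axis) against B6 (horizontal, RPM, log axis) at the 279 isolated sites, 1 point per site, coloured by whether the site overlaps a listed H3K4me3 site. Most points, 239 of 279, lie above the line of equal values.

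The comparison of Ewsr1 CKO with B6 set the DMC1 columns of these groups side by side at each hotspot. Genotype, genetic background and library cannot be told apart in it. Ratios were taken per site as the difference of log2(RPM + 1) values. The median for Ewsr1 CKO over B6 at isolated sites was 0.48 (quartiles 0.15 and 0.89), and at the other autosomal sites it was 0.15 (−0.11 and 0.45). The difference of 0.33 corresponds to 1.26-fold. DMC1 was higher in Ewsr1 CKO at 239 isolated sites (85.7%, Wilson 95% interval 81.1 to 89.3%), where the share over all autosomal sites was 65.6%. A ratio more than 1.5-fold above the autosomal median was found at 96 isolated sites (34.4%, 29.1 to 40.2%), while 11.4% of all autosomal sites passed that mark. In the other direction, 9 isolated sites (3.23%) were more than 1.5-fold below the median, against 6.34% of all autosomal sites. These intervals cover counting error only and take sites as independent.

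The same direction was seen on each chromosome. The median ratio of Ewsr1 CKO over B6 was higher at isolated than at other sites on 19 of 19 autosomes, by 0.27 in the median autosome. Chromosome 15 had the widest difference, 0.93 at its 11 isolated sites against 0.20 at the others. Chromosomes 14 and 1 followed, with differences of 0.62 and 0.59. The narrowest were on chromosome 19 (0.02, from 4 isolated sites) and chromosome 13 (0.04, from 12). All these medians come from the same 2 columns, so the chromosomes are not independent animals.

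**Figure D2:**
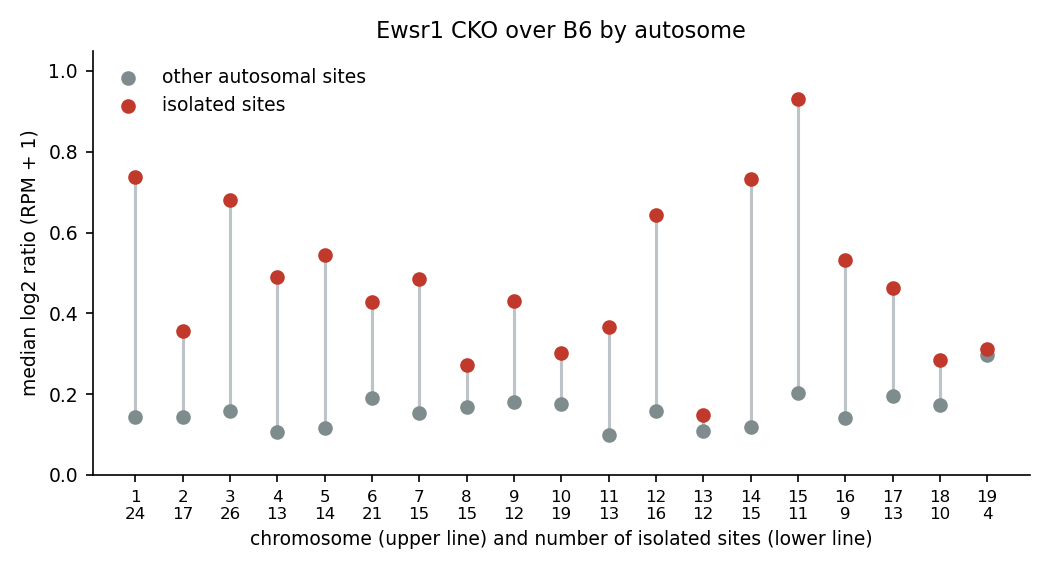
Median log2 ratio of DMC1 in Ewsr1 CKO over B6 (vertical, log2(RPM + 1) scale) on each autosome (horizontal, with the number of isolated sites below), for isolated sites (red) and other autosomal sites (grey). The red point is above the grey on all 19 autosomes, widely on chromosome 15 and barely on chromosome 19.

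The ratio was graded with the distance to the nearest listed site. It had a median of 0.10 at the 668 sites with a neighbour within 10 kb, 0.12 at 10 to 50 kb, 0.13 at 50 to 100 kb, 0.18 at 100 to 250 kb and 0.26 at 250 to 500 kb. It was 0.47 at the 257 isolated sites with a smaller gap of up to 1 Mb and 0.78 at the 22 sites with more than 1 Mb on both sides. Levels in B6 showed no such order, with class medians from 45.0 to 51.4 RPM up to 1 Mb and 69.7 RPM beyond. The 22 most isolated sites had median values of 94.3 RPM (Ewsr1 CKO) and 16.3 RPM (Prdm9 het). The sites nearest to the limit of 500 kb, on either side of it, had almost equal values in B6 and Ewsr1 CKO. The site on chromosome 15 at 60185828 to 60188429, with a gap of 503 kb, had 124 RPM (B6) and 126 RPM (Ewsr1 CKO), and that on chromosome 11 at 66419428 to 66420752, also with 503 kb, had 7.07 and 7.37 RPM. Those just outside were on chromosome 5 at 64190925 to 64193469 (499 kb), which had 73.3 and 78.1 RPM, and on chromosome 18 at 14077465 to 14079408 (497 kb), which had 25.7 and 29.0 RPM.

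**Figure D3:**
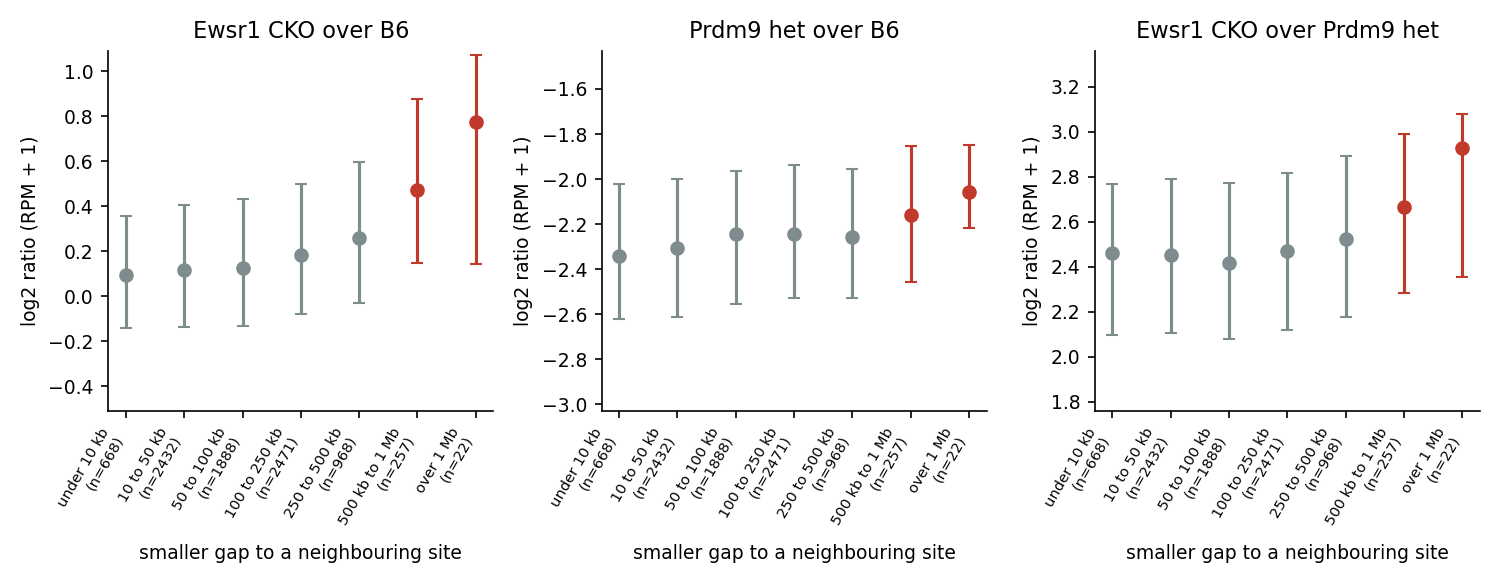
Median log2 ratio (point) and quartiles (bars) of 3 comparisons of DMC1 columns (vertical, log2(RPM + 1) scale, the same span in each panel) by the smaller gap of a site to its neighbours (horizontal, with the number of sites), with isolated classes in red. The median of Ewsr1 CKO over B6 goes from 0.10 in the closest class to 0.78 in the widest, and the quartiles of neighbouring classes overlap.

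Gene content went with the ratio in both sets of sites. At the 135 isolated sites with up to 2 protein-coding genes in the window of 1 Mb, the median ratio of Ewsr1 CKO over B6 was 0.78, against 0.40 at the 1820 other sites with so few genes. Of these 135 sites, 70 (51.9%, Wilson 43.5 to 60.1%) were more than 1.5-fold above the autosomal median, as were 24.8% (22.9 to 26.9%) of the 1820. With 3 to 6 genes the medians were 0.32 and 0.14, with 7 to 12 genes 0.27 and 0.07, and with 13 or more genes 0.43 and 0.10. Isolated sites were above the others within each of the 4 classes of gene number, but the classes do not make gene number equal. In the class of up to 2 genes, 50 of the 135 isolated and 421 of the 1820 other sites had none. Between protein-coding genes the medians were 0.60 for isolated and 0.24 for other sites, and over a gene body they were 0.27 and 0.09. Across the 279 isolated sites the ratio had a Spearman's rho of −0.37 with the number of genes in the window and 0.40 with the distance to the nearest protein-coding gene, as a description of sites that share the same columns.

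Isolated sites were above the others at every strength. When all autosomal sites were put into 4 equal classes of strength, from the mean of both log2 values, the median ratio of Ewsr1 CKO over B6 at isolated sites was 0.45, 0.67, 0.49 and 0.42 from the weakest to the strongest class. At other sites it was 0.25, 0.24, 0.13 and −0.005. Among the strongest sites the 89 isolated ones had medians of 165 RPM (B6) and 230 RPM (Ewsr1 CKO), whereas the 2097 others had 163 and 170 RPM.

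Near the distal ends the direction was the opposite. At the 242 isolated sites more than 10 Mb from the outermost listed sites the median ratio of Ewsr1 CKO over B6 was 0.50 (other sites 0.17), and at the 22 within 10 Mb of the first listed site it was 0.47 (other sites 0.07). At the 15 within 10 Mb of the last listed site, the distal end, it was −0.35, and the 626 other sites there had −0.04. DMC1 was lower in Ewsr1 CKO at 13 of these 15 sites (86.7%), which lie on 11 chromosomes, and at 53.4% of the 626 others. The lowest was on chromosome 16 at 95496569 to 95499090, over Erg, an ETS transcription factor gene, with 61.9 RPM (B6) against 40.0 RPM (Ewsr1 CKO; log2 ratio −0.62). The strongest was on the same chromosome at 91673759 to 91676693, over Son, which encodes a splicing factor, with 399 and 323 RPM (−0.30). Of the 9 isolated sites more than 1.5-fold below the autosomal median, 5 were among these 15 (33.3%), and 22.5% of the 626 others were past the same mark. The exceptions were the site at 125555966 to 125558790 of chromosome 10, with 161 RPM against 259 RPM, and that at 86306630 to 86308877 of chromosome 18, with 52.3 RPM against 83.2 RPM.

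**Figure D4:**
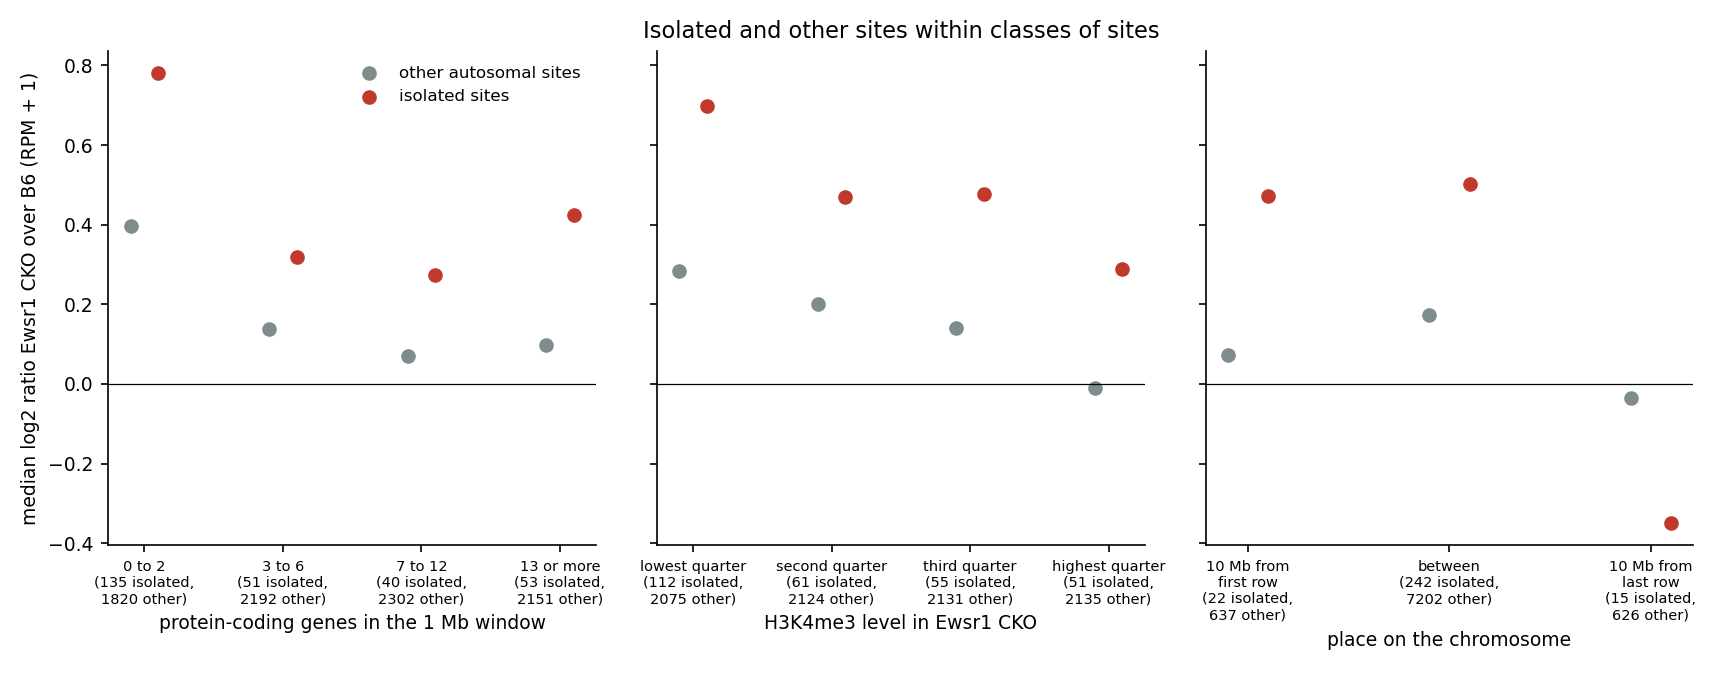
Median log2 ratio of DMC1 in Ewsr1 CKO over B6 (vertical, log2(RPM + 1) scale) at isolated (red) and other autosomal sites (grey), by protein-coding genes in the window of 1 Mb, by H3K4me3 level in Ewsr1 CKO and by place on the chromosome (horizontal, with the number of sites). Red points lie above grey in all classes except the 15 isolated sites within 10 Mb of the last listed site, at −0.35 against −0.04.

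Over all isolated sites the H3K4me3 level in Ewsr1 CKO had a lower median than over the others. The median H3K4me3 value was 0.700 RPM (quartiles 0.464 and 1.17 RPM) at isolated and 0.884 RPM (0.579 and 1.40 RPM) at other sites, a ratio of 0.791, and isolated sites were lower on 14 of 19 autosomes. A site of the authors' H3K4me3 list overlapped 130 isolated sites (46.6%, Wilson 40.8 to 52.5%) and 56.2% of the other sites (55.2 to 57.3%). DMC1 per unit of H3K4me3 in Ewsr1 CKO was correspondingly higher, with a median quotient of 102 (57.5 and 193) at isolated and 62.5 (35.9 and 113) at other sites. The higher ratio of Ewsr1 CKO over B6 was present at every level of the mark: in 4 equal classes from the lowest to the highest H3K4me3, isolated sites had medians of 0.70, 0.47, 0.48 and 0.29 and other sites 0.28, 0.20, 0.14 and −0.01. It was 0.62 at the 149 isolated sites without and 0.40 at the 130 with a listed H3K4me3 site, against 0.24 and 0.09 elsewhere. Where a listed H3K4me3 site overlapped, the hotspot interval itself held a median H3K4me3 value of 1.16 RPM (isolated) and 1.23 RPM (other). Measured over the listed H3K4me3 sites instead, the medians were 1.09 RPM at the 130 that overlapped isolated hotspots and 1.04 RPM at those that overlapped others, which were narrower, and per kb of width they were 0.555 and 0.591 RPM. At the same 130 sites the median H3K36me3 value in Ewsr1 CKO was 1.28 RPM (0.924 and 1.78 RPM), and at the 4764 that overlapped other autosomal hotspots it was 1.46 RPM (0.989 and 2.29 RPM). Per kb of site width the H3K36me3 medians were 0.694 and 0.802 RPM. No H3K4me3 or H3K36me3 value of B6 was used, so whether the marks differ between genotypes at isolated sites was not tested.

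The sites next to isolated ones were compared with them as well. The 438 flanking sites that were not isolated themselves stood at a median of 0.35 for Ewsr1 CKO over B6, between the isolated (0.48) and all other sites (0.15). For Prdm9 het over B6 the flanking sites stood at −2.30, below both the isolated (−2.16) and all other sites (−2.27). In the first comparison an isolated site was above both of its neighbours in 108 cases (38.7%) and below both in 76 (27.2%), where the shares among the 8427 other sites with a neighbour on each side were 32.1% and 32.4%, and it exceeded the mean of its neighbours by a median of 0.05. Across the 279 sites the ratio had a Spearman's rho of 0.60 with the mean ratio of the flanking pair, and across the 8427 others 0.44, all from the same columns. For Prdm9 het over B6 these were 0.12 and 0.27. In that comparison an isolated site was above both neighbours in 40.1% and below both in 25.4% of cases (other sites 32.4% and 32.9%). For Ewsr1 CKO over Prdm9 het the shares were 28.3% and 34.4% (other sites 33.3% and 33.1%). 

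The highest ratios of Ewsr1 CKO over B6 among isolated sites of at least median strength were far from genes. On chromosome 15 at 24204024 to 24206836, 727 kb from Cdh18, the DMC1 value of B6 was 30.4 RPM, that of Ewsr1 CKO 108 RPM and that of Prdm9 het 7.03 RPM. Its ratio of 1.79, on the log2 scale, had a counting error of 0.12. Also on chromosome 15, at 16469566 to 16472416 and 256 kb from Cdh9, the values were 80.5, 264 and 20.03 RPM (1.70, counting error 0.073). Both genes encode cadherins, which join cells. On chromosome 1 at 49623089 to 49625943, 1275 kb from Tmeff2, a transmembrane protein gene, they were 45.5, 144 and 16.4 RPM (1.64, counting error 0.097). None of these 3 sites overlapped a listed H3K4me3 site. Their neighbours were also higher in Ewsr1 CKO, with log2 ratios of 0.87 and 1.17 beside the first, 1.40 and 0.93 beside the second and 0.34 and 1.29 beside the third.

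The lowest ratios at such sites were milder. The site at 185788256 to 185791025 of chromosome 1 had 139 RPM in B6 against 101 RPM in Ewsr1 CKO (log2 ratio −0.46, counting error 0.084). On chromosome 5 at 75047875 to 75050685, 3.23 kb from Chic2, the values were 169 and 126 RPM (−0.41, counting error 0.075), and at 140456268 to 140458916, over Gm4869, 134 and 103 RPM (−0.39, counting error 0.083). All 3 overlapped a listed H3K4me3 site, and the first and the third belong to the 15 distal sites. The counting errors take 1 step of the column as 1 read and leave out variation between animals.

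The 5 isolated sites with the highest mean over the 3 scaled DMC1 columns, which by this choice are strong across the genotypes, all lay between protein-coding genes. The strongest, on chromosome 2 at 98106987 to 98109737 and 475 kb from Lrrc4c, a synaptic adhesion gene, reached DMC1 values of 869 RPM (B6), 867 RPM (Ewsr1 CKO) and 163 RPM (Prdm9 het). B6 and Ewsr1 CKO were level there (log2 ratio −0.004), and its H3K4me3, 3.14 RPM, was the third highest of the isolated sites. On chromosome 11 at 13430844 to 13433662, 966 kb from Cobl, an actin nucleator gene, the values were 584, 713 and 93.5 RPM. On chromosome 15 at 45264978 to 45268054, 149 kb from Kcnv1, a potassium channel subunit gene, they were 449, 665 and 81.0 RPM. On chromosome 3 at 110925873 to 110928599, 675 kb from Prmt6, an arginine methyltransferase gene, they were 397, 641 and 85.9 RPM. Neither the site near Cobl nor that near Prmt6 had a protein-coding gene in its window of 1 Mb. On chromosome 1 at 109536325 to 109539175, 443 kb from the cadherin gene Cdh7, they were 353, 516 and 60.1 RPM. All 5 overlapped a listed H3K4me3 site, and the last 4 had more DMC1 in Ewsr1 CKO, with log2 ratios from 0.29 to 0.69.

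The sites with the widest gaps varied in strength and in gene number. The most isolated site, on chromosome 6 at 131626194 to 131629600, had gaps of 2196 and 2125 kb and lay 0.292 kb from Tas2r130, a bitter taste receptor gene, among 13 protein-coding genes of its window. Its DMC1 values were 222 RPM (B6), 391 RPM (Ewsr1 CKO) and 48.1 RPM (Prdm9 het). The next, on chromosome 17 at 28647261 to 28649634 over Slc26a8, a sperm anion transporter gene, had gaps of 2302 and 2114 kb, 26 genes in its window and only 29.2, 30.2 and 5.66 RPM. The third, on chromosome 10 at 118907118 to 118909990 and 17.9 kb from the kinase gene Dyrk2, had 78.2, 80.8 and 21.4 RPM. The first of these differed between B6 and Ewsr1 CKO (log2 ratio 0.81) and the others hardly did (0.05 and 0.05).

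Prdm9 het against B6 set mice with a single intact Prdm9 copy beside B6, and here too genotype, genetic background and library cannot be told apart. The median log2 ratio of Prdm9 het over B6 was −2.16 at isolated (quartiles −2.44 and −1.85) and −2.27 at other sites (−2.57 and −1.97), a difference of 0.11 that is small beside these quartiles. Isolated sites were above the others on 17 of 19 autosomes. Relative to the autosomal median, 37 isolated sites (13.3%) were more than 1.5-fold higher, against 10.3% of all autosomal sites, and 17 (6.09%) were more than 1.5-fold lower, against 9.78%. With columns scaled to the B6 total the latter shares were 9.32% and 13.6%. The Wilson interval of the share of higher sites, 9.78 to 17.7%, includes its background, and that of the share of lower sites without scaling, 3.84 to 9.54%, lies just under its own. This comparison and the first share the B6 column. Unlike Ewsr1 CKO over B6, Prdm9 het over B6 had little relation to gene number at isolated sites (Spearman's rho 0.04). With up to 2 genes in the window the medians were −2.15 for isolated and −2.23 for other sites, and with 13 or more they were −2.11 and −2.24.

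A few isolated sites stood far from this median in Prdm9 het. On chromosome 8 at 29609498 to 29612455, 390 kb from Unc5d, a netrin receptor gene, B6 had 532 RPM and Ewsr1 CKO 519 RPM, but Prdm9 het had 0.930 RPM. Relative to the autosomal median the log2 ratio of Prdm9 het over B6 was −5.84. On chromosome 6 at 24654790 to 24657648, over Wasl, an actin regulator gene, the values were 131, 153 and 1.72 RPM, with a relative ratio of −3.33. The chromosome 14 site at 53715244 to 53718362 had 115, 106 and 3.95 RPM, with a relative ratio of −2.29, and H3K4me3 was 3.26 RPM. These 3 were the only isolated sites more than 2 log2 units below that median, and all overlapped a listed H3K4me3 site. Both neighbours of the chromosome 14 site were low as well (0.642 RPM in Prdm9 het with 144 RPM in B6, and 0.183 with 173 RPM), 1 neighbour of the chromosome 8 site was (0.176 with 25.8 RPM), and those of the chromosome 6 site had 12.2 RPM in Prdm9 het with 32.2 RPM in B6, and 39.3 with 356 RPM, the second of them −0.88 relative to the autosomal median.

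At the upper end, again among isolated sites of at least median strength, the chromosome 3 site at 61943432 to 61946046, 393 kb from the exchange factor gene Arhgef26, had DMC1 values of 68.8 RPM (B6), 142 RPM (Ewsr1 CKO) and 38.0 RPM (Prdm9 het), 1.43 log2 units above the autosomal median of Prdm9 het over B6. The chromosome 10 site at 80706273 to 80708759, over Ap3d1, a subunit gene of the AP-3 adaptor complex, had 61.2, 69.0 and 28.2 RPM (1.17 above). It also had the highest H3K4me3 of all isolated sites, 5.05 RPM, and 54 protein-coding genes in its window. The chromosome 7 site at 47789004 to 47791647, 188 kb from the itch receptor gene Mrgpra3, had 97.5, 137 and 43.2 RPM (1.11 above).

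Ewsr1 CKO compared directly with Prdm9 het gave a log2 ratio with a median of 2.67 at isolated (quartiles 2.28 and 3.01) and 2.46 at other sites (2.11 and 2.80), a difference of 0.22. More than 1.5-fold above the autosomal median were 67 isolated sites (24.0%), against 13.2% of all autosomal sites, and below it 25 (8.96%), against 13.3%. Isolated sites were above the others on 14 of 19 autosomes. With up to 2 genes in the window the medians were 2.90 and 2.66, whereas with 3 to 6 genes they were 2.46 and 2.45. The flanking sites that were not isolated had a median of 2.68, level with the isolated ones. With weaker isolated sites left out (those under median strength), the ratio was highest at the 3 sites on chromosomes 8, 6 and 14 that were low in Prdm9 het relative to B6, and lowest at the sites on chromosomes 10 and 7 named before and on chromosome 18 at 74476741 to 74479640, over Myo5b, a myosin gene, with 188 RPM (Ewsr1 CKO) and 60.2 RPM (Prdm9 het).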

How the data were processed

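DMC1, H3K4me3 and H3K36me3 were measured by ChIP-seq in spermatocytes. Per the labels' protocols, chromatin was sonicated for DMC1 and digested with micrococcal nuclease for the histone marks. The submitters' processing notes name mm10, BWA 0.5.10 and Trimmomatic 0.32, while how peaks were called and replicates combined is not given in the sources used here. The authors deposited 2 tables of shared sites in RPM, per the file headers, with 1 column per group and a denominator that is not stated. Samples were grouped by title. Another 4 columns match no sample of the series and were not used. The H3K4me3 table had 5787 lines, and repeated intervals were averaged, which left 5567 sites.

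Gaps were taken from interval end to interval start. Log2 ratios were taken after adding a pseudocount of 1 RPM, so that differences at low sites are understated. Since columns hold 1 value per group, sets of sites were described by medians, quartiles and shares, without p-values. Shares have Wilson 95% intervals. In B6 and Ewsr1 CKO 100% of the DMC1 values lay within 0.05 steps of a whole multiple of 0.129 and 0.246 RPM. Taking a step as a read, isolated sites held medians of 378 and 282 reads (at least 50 and 30), and the median counting error of a log2 ratio was 0.11. Prdm9 het lay on no such step, and its depth is unknown. Amplified reads are not independent molecules, so intervals cover counting error only. Overlap meant at least 1 bp shared. Genes and promoter sequences came from RefSeq GRCm38.p6.

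Sites named in the text were, among isolated ones, the 5 strongest over 3 scaled DMC1 columns, the 3 with the largest smaller gap, the 3 highest and 3 lowest ratios per comparison at or above median strength, the 3 with the most H3K4me3, and 2 on each side of the threshold. The distal sites and those with a promoter window were named after their values were seen. The set of sites, the gap limit and the classes were chosen with earlier results of these data known. Alternatives changed the pseudocount, scaling, gap, strength filter, overlap rule and chromosomes. Functions were tested on simulated data. Calculations used Python 3.11.15, numpy 2.4.6, pandas 2.3.3, scipy 1.17.1 and matplotlib 3.10.9.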

Additional observations from a re-analysis of the deposited data

How the results depend on the processing

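The differences between isolated and other sites kept their sign for the 3 ratio comparisons under each setting tried except the comparison with flanking sites given below, and leaving out single autosomes gave 0.32 to 0.34 for Ewsr1 CKO over B6 (0.33), 0.10 to 0.12 for Prdm9 het over B6 (0.11) and 0.20 to 0.22 for Ewsr1 CKO over Prdm9 het (0.22). The gap moved them: with 250 kb (1247 sites) they were 0.16, 0.042 and 0.092, and with 1 Mb (22 sites) 0.62, 0.21 and 0.47. Taken within each autosome, Ewsr1 CKO over B6 had a median difference of 0.27. After seeing the data, differences were also taken within classes of gene number (0.27 for Ewsr1 CKO over B6 and 0.069 for Ewsr1 CKO over Prdm9 het) and against flanking sites only (0.14, and −0.0060 for Ewsr1 CKO over Prdm9 het, which reverses it). The cause of these shifts was not tested. The ratio of median B6 DMC1 (1.03) was 0.964 without sites within 10 Mb of the outermost ones, and with a gap of 1 Mb the ratios were 1.48 in B6, 1.68 in Ewsr1 CKO and 1.81 in Prdm9 het. Overlap with H3K4me3 sites (46.6%) was 62.6% among the stronger isolated sites, those not below the median of the means. With 2-fold in place of 1.5-fold, 10.4% of isolated sites were higher and 0% lower for Ewsr1 CKO over B6 (2.56% and 0.881% of all autosomal sites), 3.94% and 1.79% for Prdm9 het over B6 (2.14% and 2.98%) and 8.60% and 1.79% for Ewsr1 CKO over Prdm9 het (4.04% and 3.40%), fewer by construction. The share more than 1.5-fold lower for Prdm9 het over B6 (6.09%) was 9.32% both with a pseudocount of 0.1 RPM and with columns scaled to the B6 total (13.7% and 13.6% of all autosomal sites). Of the recomputed values of named sites, 126 stayed within their counting interval (0.2 log2 units where Prdm9 het enters) and 12 did not. No paired analysis was possible because each group has a single column without a replicate number, and the results come from no test, and leaving out a replicate was likewise not run. The motif was not counted in the sites themselves, since no genome sequence was used here.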

Other observations

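A gap in the DMC1 list was not always free of H3K4me3. The authors' H3K4me3 list held 575 sites that overlapped no listed DMC1 site, and at least 1 of them lay within 500 kb of 33 of the 279 isolated hotspots (11.8%). With these sites also counted as neighbours, 246 isolated hotspots would be left. Of the 279 isolated hotspots, 102 had another one as a direct neighbour, and such neighbours share a gap that the rule uses. Of the 38 outermost sites of the autosomes, 7 had an inner gap of more than 500 kb.

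Within isolated sites the DMC1 level in Ewsr1 CKO and its H3K4me3 had a Spearman's rho of 0.53 across 279 sites, and 0.43 across the other 8465 sites. For DMC1 in B6 with the same H3K4me3 column these were 0.60 and 0.49.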
